A study of Mus musculus with 48 samples.

Results

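The Obox genes encode oocyte-specific homeobox proteins, transcription factors that lie in 1 cluster on mouse chromosome 7. Their transcripts were followed in single mouse embryos at the 2-cell stage, when maternal mRNA is lost and transcription of the embryo's own genome begins. Obox1, Obox2, Obox5, Obox7, Obox3 and Obox6 were taken by gene symbol, 6 of the 55 rows whose symbol begins with Obox and 6 of 55421 genes in all. By its title, the study concerns mice whose protamine 1, a small basic protein that replaces most histones on sperm DNA, has 1 amino acid exchanged, and the effect on sperm chromatin and fertility. It sequenced 24 embryos labelled K49A and 24 labelled WT, each whole embryo in its own well with Smart-seq2, a method that amplifies polyadenylated RNA from very little material. All embryos are given as strain C57BL6 and were collected 26 to 28 hours after fertilization. The labels state no other allele or treatment, and they do not give the parent that carried the substitution, the litters, or the meaning of the word "dot" in 3 K49A titles.

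In mice, Obox1, Obox2, Obox5 and Obox7 are known as maternal genes, whose mRNA the oocyte lays down and the embryo then degrades. Obox3 is known as a zygotic gene, switched on when the embryonic genome is activated, and Obox6 is known from the 2-cell stage to the morula. The proteins bind DNA through a homeodomain of the paired-like class, and loss of the gene cluster in mice is known to impair activation of the embryonic genome, with maternal and zygotic copies able to stand in for each other.

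The sequences around the genes' starts are shown because the maternal copies share a stretch there that Obox3 holds in altered form. The stretch was picked for its presence in all 4 maternal copies, so that presence is not a result. Whether it bears on transcript levels was not tested. RefSeq promoters on GRCm38.p6, 250 bases before to 50 bases after the annotated start, were at hand for 5 of the 6 members. The capitals mark a stretch of 44 bases that is the longest run present in all 4 maternal copies, and, in Obox3, the window closest to it.
Obox1 (chr7:15547007-15547306, plus strand): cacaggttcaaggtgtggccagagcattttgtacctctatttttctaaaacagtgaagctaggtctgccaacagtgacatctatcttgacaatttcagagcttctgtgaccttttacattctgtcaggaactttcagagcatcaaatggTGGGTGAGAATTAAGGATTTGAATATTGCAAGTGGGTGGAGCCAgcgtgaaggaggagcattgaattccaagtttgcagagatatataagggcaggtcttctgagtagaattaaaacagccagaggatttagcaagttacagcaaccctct
Obox2 (chr7:15388601-15388900, plus strand): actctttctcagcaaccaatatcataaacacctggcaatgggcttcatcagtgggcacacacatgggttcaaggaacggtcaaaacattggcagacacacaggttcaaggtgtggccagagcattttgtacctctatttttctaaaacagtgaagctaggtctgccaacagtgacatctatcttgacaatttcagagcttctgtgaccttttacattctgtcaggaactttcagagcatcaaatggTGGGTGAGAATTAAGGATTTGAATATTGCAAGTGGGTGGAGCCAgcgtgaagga
Obox5 (chr7:15750120-15750419, plus strand): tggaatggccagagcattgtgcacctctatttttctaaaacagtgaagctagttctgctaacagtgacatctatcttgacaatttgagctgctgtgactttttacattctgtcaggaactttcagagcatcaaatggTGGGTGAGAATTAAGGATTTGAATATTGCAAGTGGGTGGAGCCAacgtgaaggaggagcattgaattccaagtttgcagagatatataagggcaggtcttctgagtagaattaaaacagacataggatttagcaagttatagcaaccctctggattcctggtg
Obox7 (chr7:14659458-14659757, plus strand): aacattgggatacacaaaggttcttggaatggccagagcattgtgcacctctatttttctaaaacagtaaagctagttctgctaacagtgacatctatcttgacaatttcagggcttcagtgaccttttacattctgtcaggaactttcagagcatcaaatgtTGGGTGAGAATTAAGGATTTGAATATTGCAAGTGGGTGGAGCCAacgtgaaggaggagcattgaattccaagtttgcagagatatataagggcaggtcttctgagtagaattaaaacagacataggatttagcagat
Obox3 (chr7:15639728-15640027, minus strand): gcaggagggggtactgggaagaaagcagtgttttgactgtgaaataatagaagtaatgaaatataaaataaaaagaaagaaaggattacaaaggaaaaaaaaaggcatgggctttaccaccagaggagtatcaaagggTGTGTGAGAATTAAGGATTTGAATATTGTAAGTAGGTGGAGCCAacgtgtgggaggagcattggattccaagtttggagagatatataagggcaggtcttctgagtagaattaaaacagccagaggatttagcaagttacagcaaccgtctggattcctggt
The stretch of 44 bases occurred in the promoters of Obox1, Obox2, Obox5 and Obox7 and in no other of the 32851 promoters in the table. The closest window of Obox3 matched 41 of its 44 bases. Counted from the 5′ end of the stretch, the substitutions were G3T, C29T and G34A, with the base of the maternal copies first. Obox1 and Obox2 were identical over all 203 bases that could be aligned, and the window of Obox2 lies further upstream because its annotated start does. Promoter identity was 95.5% between Obox1 and Obox5 (288 aligned bases), 97.1% between Obox5 and Obox7 (274 aligned bases) and 81.5% between Obox1 and Obox3 (270 aligned bases). The run TATATAA was searched on both strands after the sequences were seen. It was found in the promoters of Obox1, Obox5, Obox7 and Obox3 but not in the window of Obox2, and in 3.24% of all promoters. On both strands, the homeodomain motif TAATCC was found once, in Obox3, and in 7.06% of all promoters, and TAATTG (8.0%) and TAATTA (5.29%) in none of the 5. The E-box letters CANNTG, present in 72.3% of all promoters, occurred 4 times in Obox2, 2 times each in Obox1, Obox5 and Obox7, and not in Obox3. A match describes these letters and is not a binding site.

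All 6 genes are annotated on chromosome 7 of GRCm38 (GENCODE M21), between positions 14659496 and 15839678, a span of 1180 kb. Obox7 lies at 14659496 to 14665996, Obox2 at 15388721 to 15398545, Obox1 at 15388948 to 15556866 and Obox5 at 15750131 to 15759800, all on the plus strand. Obox3 at 15479825 to 15639902 and Obox6 at 15833241 to 15839678 are on the minus strand. The promoter window shown for Obox1 (15547007 to 15547306) lies inside the span of Obox1 given here, so its RefSeq start is not the start of that span. The annotated span of Obox1 overlaps that of Obox2, and 62.7% of the 50-base words in Obox2 transcripts also occur in Obox1 transcripts. Only 34.9% of the words of Obox2 and 42.6% of those of Obox1 were found in no other gene of the family, against 81.9% for Obox5, 78.9% for Obox7, 79.8% for Obox3 and 95.0% for Obox6. The deposited counts are estimates that divide reads among such copies, so the split between Obox1 and Obox2 is uncertain, while Obox6 rests mostly on sequence of its own.

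Depth differed widely between wells. Libraries of at least 100000 counts were used, 17 K49A (105627 to 4947276 counts, median 4034654) and 12 WT (421301 to 5309505, median 3787532), and the other 19 held at most 39135 counts. A narrower set of 14 K49A and 10 WT libraries, called deep here, had at least 1000000 counts and 12000 detected genes and leaves out K49A embryos 3, 14 and 22 and WT embryos 5 and 10. K49A embryos filled plate rows 5 to 8 and WT embryos rows 1 to 4, and row therefore cannot be told apart from group. Each library pools a whole embryo, so a lower level per cell and a cell without the transcript cannot be told apart. The replicate is the embryo, and since some embryos may share a parent, the p-values cover only the scatter among these embryos.

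Measured per transcript length, as the deposited TPM (transcripts per 1000000 transcripts), Obox6 had the highest median level of the family and Obox3 the lowest. Median TPM over the 29 embryos was 338 for Obox6, 192 for Obox5, 151 for Obox1, 72.4 for Obox2, 30.8 for Obox7 and 22.3 for Obox3. The order within the 17 K49A embryos was the same, and in the 12 WT embryos Obox3 (median 42.4 TPM) stood above Obox7 (34.5 TPM). Within embryos, Obox5 exceeded Obox1 by a mean log2(TPM + 1) difference of 0.51 ± 0.53 (SD, 24 of 29 embryos), Obox1 exceeded Obox2 by 1.59 ± 0.82 (29 of 29), and Obox2 exceeded Obox7 by 0.83 ± 0.57 (25 of 29). Each of these had an adjusted p of 1.67e-05 in a 2-sided sign-flip permutation test over 5 neighbouring pairs, from a raw p of 1e-05, the smallest that 100000 resamples can give. The test covers scatter among embryos and not the division of reads between Obox1 and Obox2, which is uncertain in every embryo. Neighbours at the ends of the order did not differ beyond their spread. Obox6 minus Obox5 was -0.12 ± 2.64 (16 of 29 embryos positive, adjusted p = 0.821 in the permutation test), and Obox7 minus Obox3 was 0.51 ± 2.29 (15 of 29 positive, adjusted p = 0.306 in the permutation test).

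Obox6 was the highest of the 6 genes in 9 K49A and 7 WT embryos, Obox5 in 7 K49A and 5 WT embryos, and Obox1 in 1 K49A embryo. The share of Obox3 and Obox6 in the summed TPM of the 6 genes ran from 0.269% in K49A embryo 4 to 82.5% in K49A embryo 5 (median 33.0%, n = 17). In WT embryos it ran from 6.24% in embryo 20 to 83.3% in embryo 24 (median 47.8%, n = 12). The share exceeded 50% in 7 of 17 K49A and 6 of 12 WT embryos, so both groups covered nearly the whole range. The summed TPM of the family was 84 to 1525 in K49A (median 1008) and 266 to 1718 in WT embryos (median 1334).

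**Figure D1:**
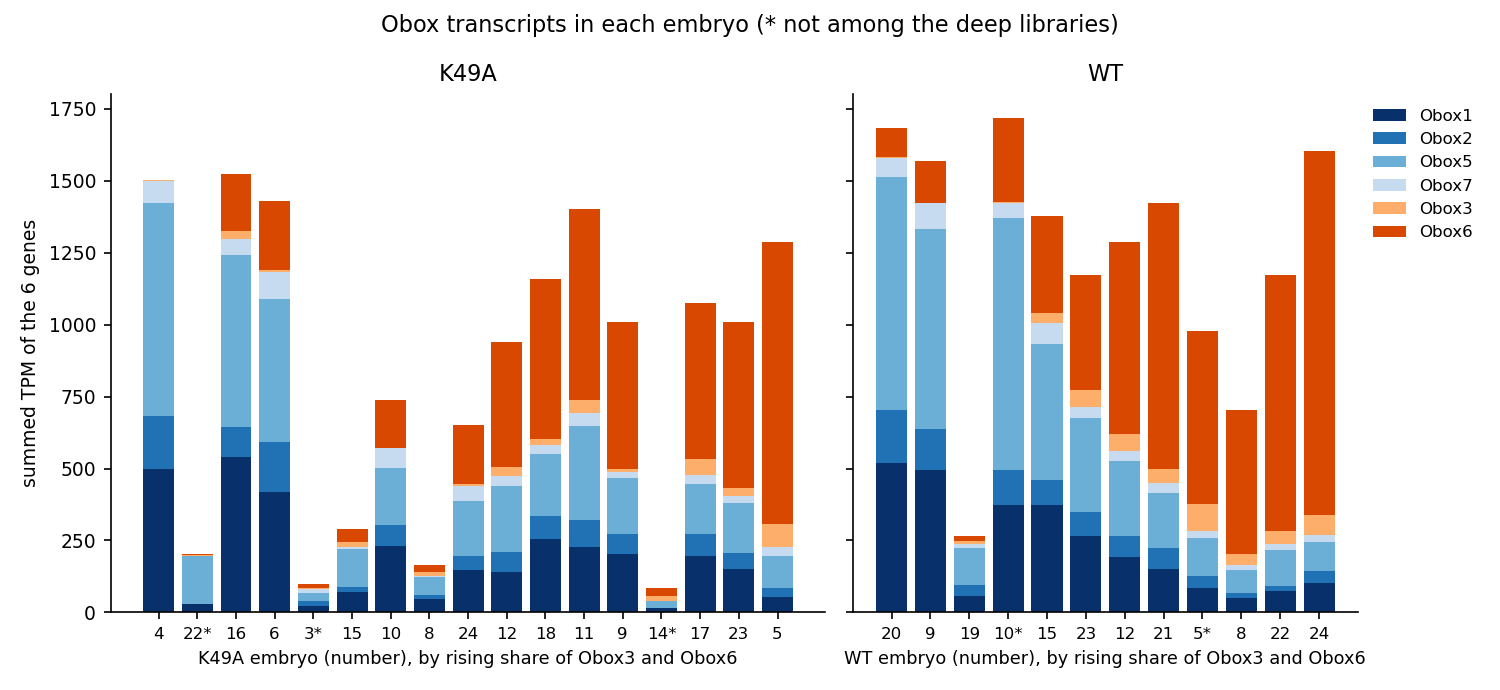
Summed TPM of the 6 Obox genes in each tested embryo, 17 K49A (left) and 12 WT (right), ordered by the share of Obox3 and Obox6. Blue parts are the maternal copies and orange parts Obox3 and Obox6, and both groups run from embryos that are nearly all blue to embryos that are more than 80% orange, with K49A embryo 4 at 0.269%.

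The maternal copies were detected in nearly every embryo. As CPM (counts per 1000000 after library scaling), Obox5, the most abundant of them, ran from 83.4 in K49A embryo 14 to 1458 in K49A embryo 4 (median 277, n = 17). In WT embryos it ran from 130 in embryo 8 to 1689 in embryo 20 (median 397, n = 12). The embryos at the top of both groups, K49A 4 and WT 20, also had the highest Obox1 and Obox2 levels of their groups. Obox1 was at 35.6 to 558 CPM in K49A (median 133) and 47.9 to 625 CPM in WT embryos (median 168). Obox2 was at 0 to 240 CPM in K49A (median 56.9) and 12.5 to 280 CPM in WT embryos (median 81.2). Obox7, the scarcest maternal copy, was at 0 to 102 CPM in K49A (median 24.8) and 17.1 to 103 CPM in WT embryos (median 36.7). The zeros came from K49A embryo 22 (105627 counts in all; Obox2 and Obox7) and K49A embryo 14 (283218 counts; Obox7), where a count of 0 allows up to 24.03 and 11.72 CPM (3 counts, counting error only).

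Obox3 and Obox6 varied more. Obox3, the zygotic copy, ran from 0.931 CPM in K49A embryo 4 to 85.7 CPM in K49A embryo 5 (median 25.0), and in WT embryos from 2.33 CPM in embryo 9 to 145 CPM in embryo 5 (median 56.9). Obox6 ran from 0.931 CPM in K49A embryo 4 to 818 CPM in K49A embryo 5 (median 220), and in WT embryos from 41.3 CPM in embryo 19 to 1262 CPM in embryo 21 (median 481). The SD of log2 CPM of Obox6 over all embryos was 2.09, above that of 97.1% of the tested genes, while Obox5 (1.10) and Obox1 (1.13) were above 19.2% and 21.9%. For the scarcer Obox2, Obox7 and Obox3 the SD was 1.62, 1.59 and 1.67, at 78.7%, 75.6% and 82.6%. K49A embryo 4 stood apart with 3 Obox3 and 3 Obox6 counts among 4585539, beside 1796 Obox1 and 4698 Obox5 counts. That library is not a shallow one, with 16627 detected genes. High Obox5 with low Obox3 was also seen in K49A embryo 6 (713 and 9.69 CPM) and in WT embryos 9 (1161 and 2.33 CPM), 10 (746 and 3.22 CPM) and 20 (1689 and 7.01 CPM). In WT embryo 10, not a deep library, the Obox3 value rests on 2 counts. These embryos still had Obox6, at 238 CPM in K49A embryo 6 and at 169, 198 and 142 CPM in WT embryos 9, 10 and 20. Not every embryo with high Obox5 was low in Obox3. K49A embryo 16 had 822 CPM of Obox5 and 35.6 CPM of Obox3, and WT embryo 15 had 647 and 43.6 CPM.

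**Figure D2:**
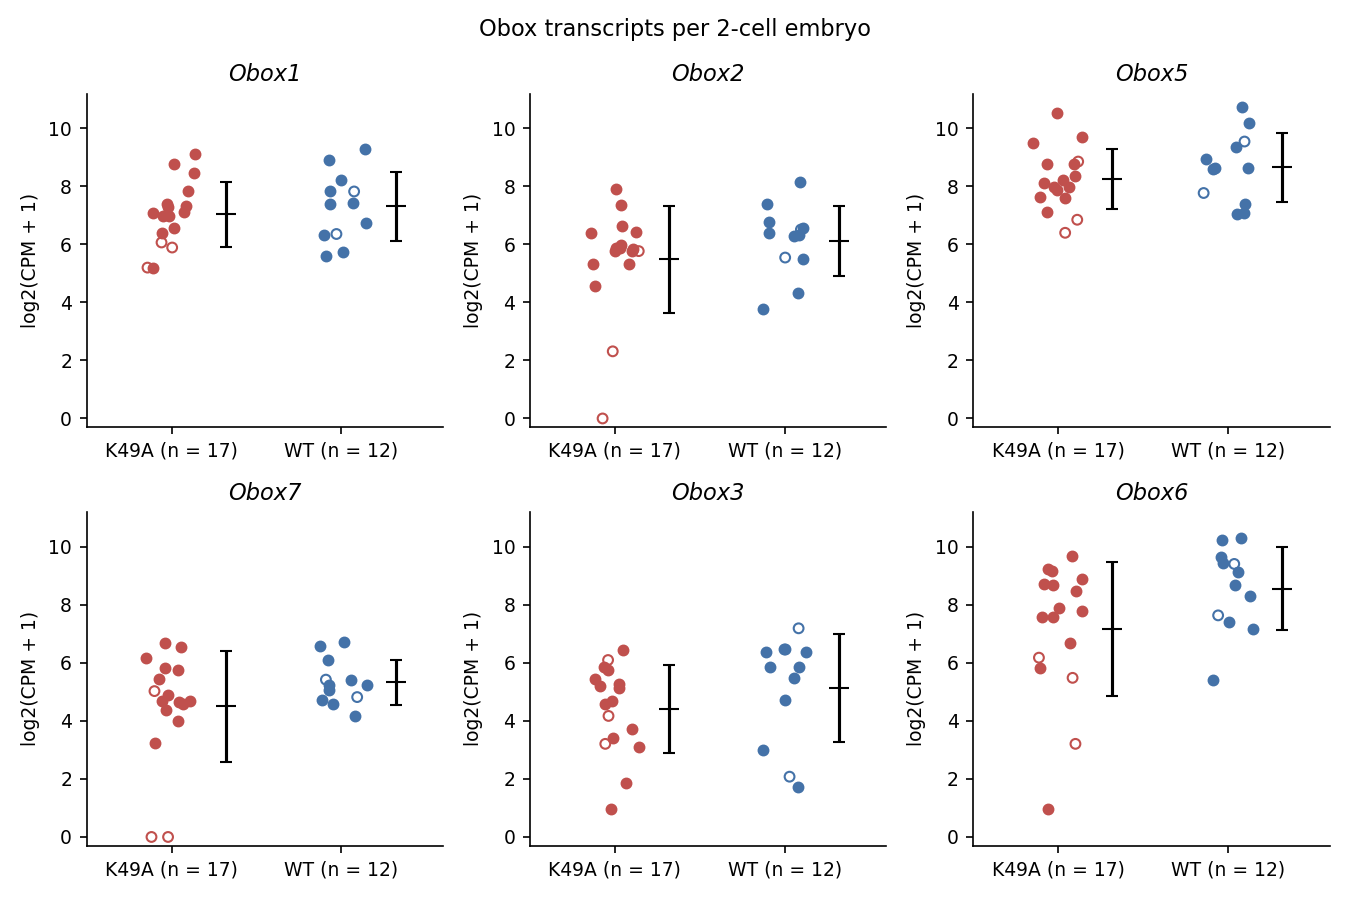
Level of each Obox gene in log2(CPM + 1) per embryo, K49A (red, n = 17) left of WT (blue, n = 12); filled points are deep libraries and open points shallower ones, and the bars beside the points are mean ± SD. The groups overlap for all 6 genes, and the isolated low Obox6 point is K49A embryo 4 at 0.931 CPM.

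Across embryos the levels of the 4 maternal copies varied together. Pearson's r of log2(CPM + 1) over the 29 embryos was 0.55 to 0.92 for their 6 pairs, all past the threshold after adjustment over 27 relations. Within K49A embryos it was 0.409 to 0.936, within WT embryos 0.877 to 0.966, and within the plate columns that held 6 tested embryos (columns 3 to 6) 0.353 to 0.99. Obox1 and Obox5 gave r = 0.91 and Spearman's rho = 0.868 (raw permutation p = 1e-05 for both, adjusted 3e-05), with r = 0.866 within K49A and 0.966 within WT embryos. In columns 3 to 6 that r was 0.827 to 0.96. Leaving out the 2 embryos with Obox1 levels farthest from the median gave 0.878. Obox1 and Obox2, whose reads are hard to separate, gave r = 0.762 and rho = 0.916 (raw permutation p = 1e-05 for both, adjusted 3e-05). The points share the library and its scaling, so they are not free of depth. In the 24 deep libraries all 6 pairs had r from 0.797 to 0.934.

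Obox3 and Obox6 also went together, and Obox3 went against Obox1 and Obox5. Obox3 and Obox6 gave r = 0.607 and rho = 0.678 (raw permutation p = 0.00057 and 3e-05, adjusted 0.0014 and 8.1e-05), with r = 0.579 within K49A and 0.669 within WT embryos. In columns 3, 4, 5 and 6 that r was 0.375, 0.629, 0.294 and 0.962, and leaving out the 2 embryos with the most extreme Obox3 levels gave 0.492 (adjusted permutation p = 0.0172). Obox3 was negatively related to Obox5 (r = -0.582, rho = -0.519; raw permutation p = 0.00098 and 0.00449, adjusted 0.00204 and 0.00866) and to Obox1 (r = -0.549, rho = -0.484; raw permutation p = 0.00196 and 0.00811, adjusted 0.00353 and 0.0146). For Obox5 with Obox3 the r was -0.563 within K49A and -0.741 within WT embryos, and -0.258, -0.564, -0.187 and -0.515 in columns 3 to 6. For Obox1 with Obox3 it was -0.554 within K49A and -0.642 within WT embryos, and -0.354, -0.485, -0.357 and -0.504 in columns 3 to 6. With the 2 embryos of most extreme maternal level left out, these relations were -0.46 (Obox5) and -0.429 (Obox1), both past the threshold (adjusted permutation p = 0.0264 and 0.0382). On the log2(TPM + 1) scale they were -0.24 (Obox5, adjusted permutation p = 0.264) and -0.15 (Obox1, adjusted permutation p = 0.497) and did not pass.

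The relation of Obox6 to the maternal copies depended on which libraries entered. Over all 29 embryos none of its 4 relations passed (r from -0.34 with Obox5 to 0.20 with Obox7). In the 24 deep libraries, r was -0.55 with Obox5, -0.46 with Obox1 and -0.46 with Obox2 (adjusted permutation p = 0.00554, 0.0287 and 0.03), and -0.31 with Obox7 (adjusted permutation p = 0.139). In the deep libraries without K49A embryo 4, none of the 4 passed, with -0.42 for Obox5 (adjusted permutation p = 0.0684), -0.32 for Obox1, -0.30 for Obox2 and -0.09 for Obox7. On log2(TPM + 1) over the 29 embryos the relation with Obox7 was positive and passed (r = 0.427, adjusted permutation p = 0.0368). The relations of Obox3 with all 4 maternal copies did pass in the deep libraries without that embryo (r from -0.56 to -0.48, adjusted permutation p from 0.0118 to 0.0288).

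**Figure D3:**
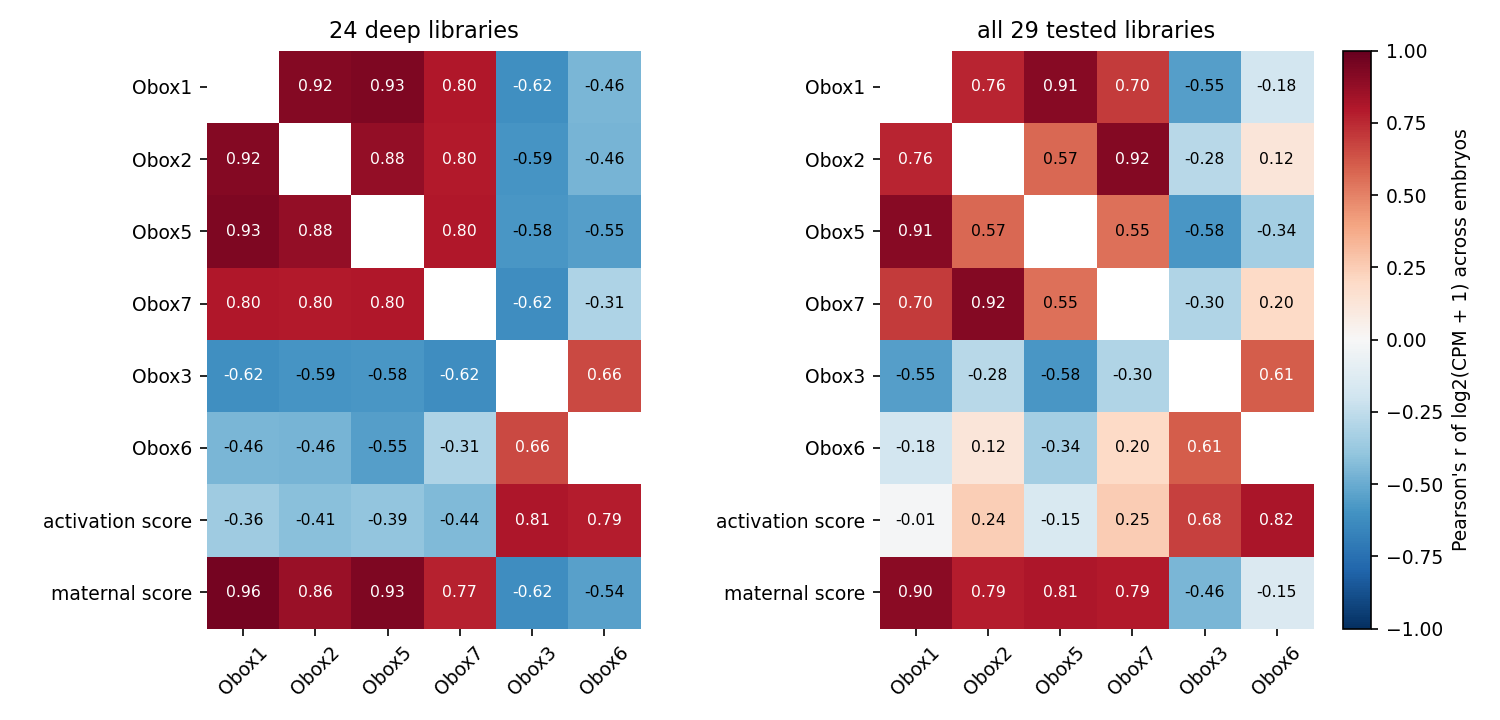
Pearson's r of log2(CPM + 1) between Obox genes, and of each gene with the activation and maternal scores, in the 24 deep libraries (left) and all 29 tested libraries (right). The maternal copies form a red block with each other and with the maternal score in both panels, and the blue cells between Obox6 and the maternal copies appear mainly in the deep libraries.

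The members were then set against lists of other genes, as scores that are the mean log2(CPM + 1) of a list in an embryo. The activation score covers 37 tested genes known to be switched on at the 2-cell stage, and the maternal score 54 tested genes of stored oocyte mRNA. Neither list holds an Obox gene. Obox6 followed the activation score with r = 0.817 and rho = 0.731 (raw permutation p = 1e-05 and 4e-05, adjusted 3e-05 and 9.82e-05), with r = 0.803 within K49A and 0.818 within WT embryos. In columns 3, 4 and 6 the r was 0.737, 0.771 and 0.841, but in column 5 it was -0.865. Activation scores of the 6 embryos in column 5 ran from 5.77 to 6.61, and the cause of the opposite sign was not tested. With the 2 embryos of most extreme Obox6 level left out of the 29, the r was 0.714 (adjusted permutation p = 0.00024). Obox3 followed the same score with r = 0.68 and rho = 0.685 (raw permutation p = 5e-05 and 8e-05, adjusted 0.000135 and 0.000166), with r = 0.64 within K49A and 0.745 within WT embryos. In columns 3 to 6 its r was 0.482, 0.821, -0.501 and 0.922, and it was 0.631 without the 2 farthest embryos.

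The maternal copies followed the maternal score, with r = 0.903 for Obox1, 0.806 for Obox5, 0.789 for Obox7 and 0.788 for Obox2 (rho from 0.762 to 0.898; raw permutation p = 1e-05 and adjusted 3e-05 for each). Within K49A these r were 0.797 to 0.929 and within WT 0.795 to 0.877, and in columns 3 to 6 they were 0.582 to 0.993. Obox3 was negatively related to the maternal score (r = -0.46, rho = -0.443; raw permutation p = 0.0118 and 0.0168, adjusted 0.0199 and 0.0283), with -0.54 within K49A and -0.436 within WT embryos and -0.19 to -0.794 in columns 3 to 6. Without the 2 embryos of most extreme Obox3 level that r was -0.307 (adjusted permutation p = 0.153), and on log2(TPM + 1) it was 0.0186 (adjusted permutation p = 0.982), so it did not pass in either setting. In deep libraries it was -0.621 (adjusted permutation p = 0.00205), and -0.527 (adjusted permutation p = 0.0179) without K49A embryo 4. Obox6 had r = -0.148 with the maternal score over all 29 embryos (adjusted permutation p = 0.47). That relation passed as negative in deep libraries (r = -0.543, adjusted permutation p = 0.00761) and as positive on log2(TPM + 1) (r = 0.402, adjusted permutation p = 0.0481). Obox6 did not pass in deep libraries without K49A embryo 4 (r = -0.39, adjusted permutation p = 0.0871). No relation of a maternal copy to the activation score passed over all 29 embryos on log2(CPM + 1) (r from -0.15 to 0.25, adjusted permutation p from 0.248 to 0.966). In column 5, where r with this score was negative for Obox3 and Obox6, it was positive for the maternal copies. It was 0.965 for Obox1, 0.927 for Obox2, 0.821 for Obox5 and 0.567 for Obox7, against -0.477 to 0.467 in columns 3, 4 and 6. On log2(TPM + 1), Obox2 (r = 0.425) and Obox7 (r = 0.43) passed (adjusted permutation p = 0.0368 for both). In deep libraries Obox7 passed with the opposite sign (r = -0.442, adjusted permutation p = 0.035), but not without K49A embryo 4 (r = -0.316, adjusted permutation p = 0.173). Gene by gene in the deep libraries, 35 of 37 activation genes had a positive r with Obox3 and 35 of 37 with Obox6, against 48.3% and 55.9% of the 12436 tested genes outside the family. With Obox5, 50 of 54 oocyte genes had a positive r and 32 of 37 activation genes a negative one, and 48.2% of the tested genes outside the family had a positive r with it. Genes of a list can vary together, so these are not counts of separate observations. Obox5 with the activation score itself did not pass in the deep libraries (r = -0.391, adjusted permutation p = 0.0617). Without K49A embryo 4 it did not pass either (r = -0.2, adjusted permutation p = 0.39).

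**Figure D4:**
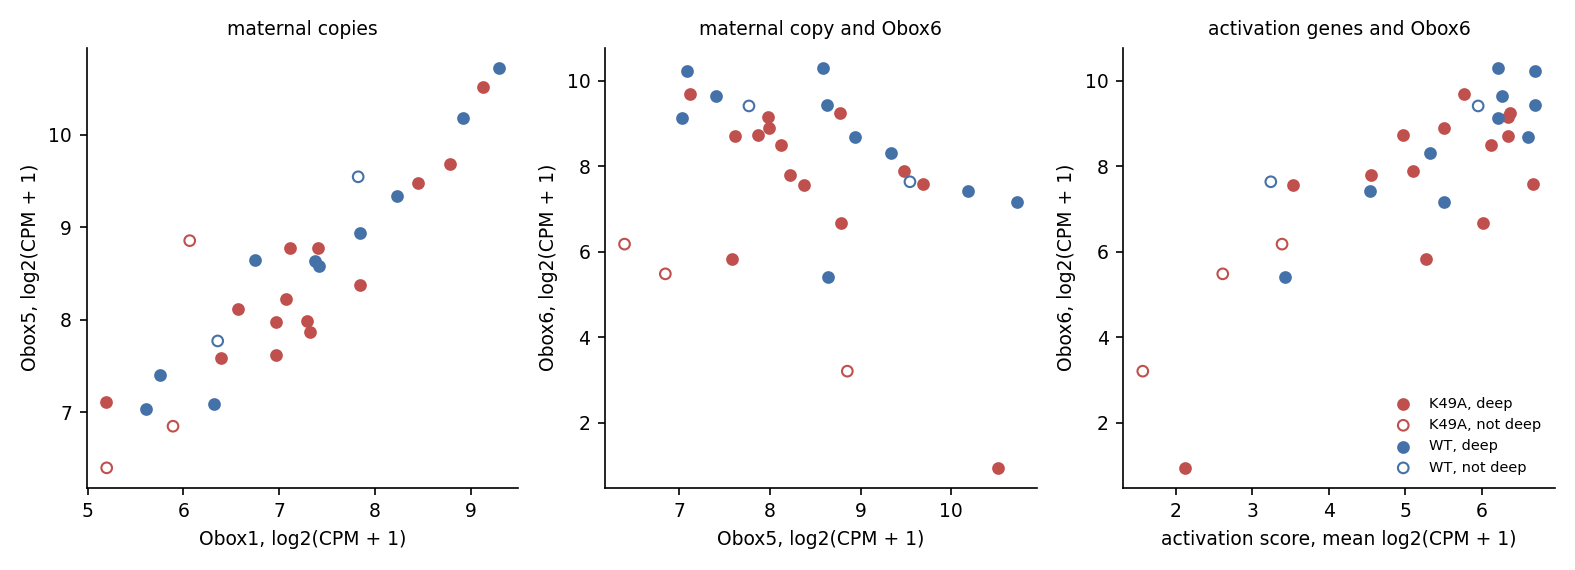
Levels in log2(CPM + 1) of Obox5 against Obox1, of Obox6 against Obox5, and of Obox6 against the activation score, 1 point per embryo (K49A red, WT blue; filled points are deep libraries). Obox1 and Obox5 lie along 1 line, while the point at the bottom right of the middle panel is K49A embryo 4 with high Obox5 and 0.931 CPM of Obox6.

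By likeness of pattern (Pearson's r over the 29 embryos among 8633 genes of at least 10 CPM on average, a description), the genes nearest to Obox5 were E330034G19Rik (r = 0.903), Bcl2l10 (0.868), which encodes a relative of the apoptosis regulator Bcl2 abundant in oocytes, and Gnpda2 (0.856). Nearest to Obox1 were Gnas (0.863), which encodes a stimulatory G protein subunit, Gnpda2 (0.86) and Olfr976 (0.856). Obox2 and Obox7 shared Gm14164 as their nearest gene (0.9 and 0.95), followed by Nudt5 (0.896) and Cenpn (0.878), a centromere protein gene, for Obox2 and by Mtfr1l (0.936) and Tasor2 (0.935) for Obox7. In the deep libraries these r were lower. They were 0.757, 0.779 and 0.847 for Obox2 with Gm14164, Nudt5 and Cenpn, and 0.845, 0.851 and 0.875 for Obox7 with Gm14164, Mtfr1l and Tasor2. For Obox3 they were Gm5890 (0.893) and Gm4513 and Gm4565 (0.879 each, with identical values in every embryo). For Obox6 they were Gtf2f1 (0.915), a subunit of general transcription factor IIF, Rpl7l1 (0.898), a ribosomal protein-like gene, and Ddx39 (0.889), an RNA helicase gene.

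Between the groups, all 6 genes averaged lower in K49A than in WT embryos, and none passed the test. Obox6 averaged 282 CPM ± 240 (SD, n = 17) in K49A and 538 CPM ± 403 (n = 12) in WT embryos, a log2 fold change of -0.93 ± 0.53 (SE, adjusted p = 0.742, edgeR's quasi-likelihood test with Benjamini-Hochberg adjustment). Obox3 averaged 30.6 CPM ± 24.5 in K49A and 56.8 CPM ± 43.2 in WT embryos, a log2 fold change of -0.89 ± 0.52 (adjusted p = 0.756, edgeR). For both genes 14 of 17 K49A embryos lay below the WT median, but only 2 and 3 of 12 WT embryos lay above every K49A embryo for Obox6 and Obox3, so the groups overlapped widely. The maternal copies differed less. Their log2 fold changes were -0.47 ± 0.41 for Obox5, -0.39 ± 0.44 for Obox2, and -0.29 for both Obox1 and Obox7 (SE 0.42 and 0.43), with adjusted p in edgeR from 0.893 to 0.95. These values hung on single embryos. Without WT embryo 20 they were -0.169 for Obox5, -0.0958 for Obox2, -0.0171 for Obox1 and -0.148 for Obox7, and without WT embryo 9 -0.117 for both Obox1 and Obox7. Without K49A embryo 4 they were -0.739 for Obox5, -0.63 for Obox2, -0.507 for Obox1 and -0.461 for Obox7. None was called in any of these fits (adjusted p from 0.63 to 0.998, edgeR). For these 4 genes 11 or 12 of 17 K49A embryos lay below the WT median.

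The test called 0 of the 6 members, and it called 0 of 12456 genes higher in K49A and 2 lower, which is 0.0161% of the genes tested. At an unadjusted p under 0.05 it also reached 0 of the 6 members, against 963 genes in all (7.73%; 6.25% higher and 1.49% lower in K49A). DESeq2 called 0 members and 0.682% of the genes, and limma 0 members and 0.321%. The median log2 fold change of the members was -0.43 and that of all tested genes 0.11, and 41.6% of all tested genes had a negative one. The members move together across embryos, so 6 negative values are not 6 separate observations. Within the 5 plate columns that held both groups, the difference in mean log2(CPM + 1), K49A minus WT, was negative in 4 columns for Obox6 (from -3.82 to 0.15) and in 4 for Obox3 (from -2.48 to 1.18). The value of -3.82 is that of column 4, where K49A embryos 4 and 22 held 3 and 1 Obox6 counts. For Obox7 the difference was also negative in 4 columns (from -3.95 to 0.49), and for Obox1, Obox2 and Obox5 in 3 each. With plate column as a factor the log2 fold change was -1.58 for Obox6 (adjusted p = 0.365, edgeR) and -1.12 for Obox3 (adjusted p = 0.53, edgeR). In that fit it was -0.62 for Obox5, -0.59 for Obox7, -0.50 for Obox1 and -0.48 for Obox2 (adjusted p from 0.757 to 0.862, edgeR).

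**Figure D5:**
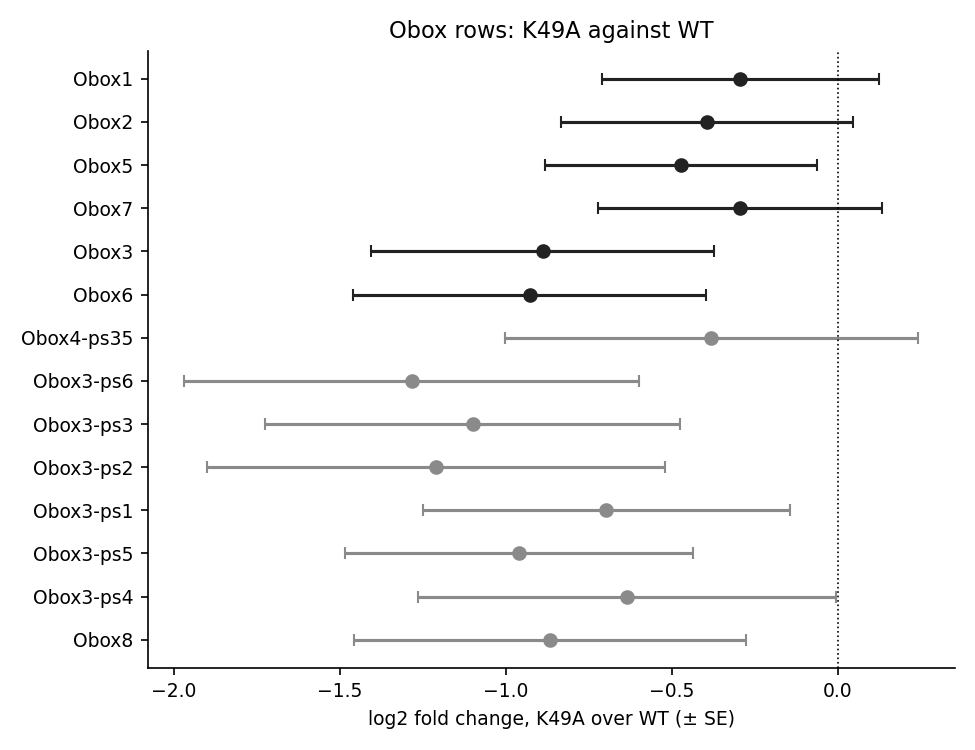
Log2 fold change of K49A over WT (± SE, edgeR) for the 6 members (black) and the 8 other rows of the family that were tested (grey). All 14 points lie left of 0, the members between -0.93 and -0.29, and none passed the adjusted threshold of 0.05. Of all tested genes 41.6% had a negative value, and rows that vary together across embryos are not separate observations.

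The remaining 49 rows of the family are mostly annotated pseudogenes of Obox3 and Obox4 in the same stretch of chromosome 7. No count was found in 17 of them in the tested libraries, and 8 passed the filter on low counts, namely 6 Obox3 pseudogenes, Obox4-ps35 and Obox8. The 8 Obox3 pseudogene rows held 14627 counts in all, against 4158 for Obox3 itself. Obox3-ps5 alone had a median of 33.2 CPM in K49A and 83.5 CPM in WT embryos, and Obox8 of 32.9 CPM in K49A and 59.9 CPM in WT embryos. In the deep libraries all 8 rows were positively correlated with Obox3 (r from 0.601 to 0.884) and negatively with Obox5 (r from -0.644 to -0.265), so they went with the zygotic copies. Obox3 shares 14.5% of its 50-base words with Obox3-ps3, the closest of them, and its annotated span covers Obox3-ps6, so the division of reads among these rows is uncertain. All 8 had negative log2 fold changes in K49A over WT, from -1.28 to -0.38, and 0 passed the test (adjusted p of at least 0.69, edgeR). Of all tested genes, 41.6% had a negative value and 0.0161% were called. The 8 rows vary with Obox3 across embryos, so they are not 8 separate observations.

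Other genes of genome activation mostly had negative fold changes too, and none passed. Among all tested genes 41.6% had a negative one. Genes of a list can vary together across embryos, so the counts below are not counts of separate observations. Of 27 tested factors known to act in activation of the embryonic genome, 24 had a negative log2 fold change (median -0.32) and 0 passed the adjusted threshold. The smallest p-values were those of Dppa4 (-1.08 ± 0.46, adjusted p = 0.536, edgeR) and Dppa2 (-0.80 ± 0.37, adjusted p = 0.571, edgeR), a pair of chromatin proteins upstream of 2-cell genes, and of the orphan nuclear receptor gene Nr5a2 (-0.92 ± 0.47, adjusted p = 0.668, edgeR). Of the 37 activation genes 27 were negative (median -0.21, 0 passing), with Spz1 (-1.40), Zscan4c (-1.45) and Zscan4d (-1.43) at adjusted p of 0.335 to 0.564 in edgeR. The 54 oocyte genes were even, with 27 negative and 27 positive (median -0.03, 0 passing), led by Sohlh1 (2.21), Ooep (1.06) and Tcl1b4 (-0.73) at adjusted p of 0.406 to 0.715 in edgeR. Of 23 tested homeobox genes outside the family 15 were negative (median -0.18, 0 passing), with Pknox1 (1.59), Pou5f1 (-0.70) and Duxbl1 (1.13) at adjusted p of 0.425 to 0.757 in edgeR.

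Markers of other cells were also read in the same libraries. The summed level of the blood list was 7.76 to 734 CPM in K49A embryos (median 99.8) and 15.2 to 62.7 CPM in WT embryos (median 28.7), with a positive log2 fold change for 4 of its 5 tested genes, none past the adjusted threshold, and 5 of its 15 genes at 0, among them Hbb-bs and Hbb-bt. Cd74 (3.03), Hba-a1 (2.67) and Laptm5 (1.45) had the smallest p (adjusted 0.276 to 0.436 in edgeR). The cumulus and granulosa list summed to 60.2 to 345 CPM in K49A (median 129) and 0 to 263 CPM in WT embryos (median 122), with 7 of 25 genes tested and Kitl (2.08), Sparc (2.36) and Tnfaip6 (0.59) leading at adjusted p of 0.351 to 0.92 in edgeR. Their part in the Obox values was not tested.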

How the data were processed

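Each of the 48 libraries is 1 embryo. Per the submitters' processing notes, the tools included RSEM 1.3.3, STAR 2.7.8a, cutadapt 2.3 and FastQC 0.11.8, and the builds GRCm38 and mm10 are named. The annotation release and the use of strand are not given in the sources used here. The authors deposited expected counts (estimated counts per gene), all whole, which rounding did not change. The 5 transgene entries held 0 counts and were left out. The TPM table as deposited by the authors served to compare genes and as an alternative. A deposited file named for FPKM held the TPM values and was not used.

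Libraries of at least 100000 counts were kept. Genes were kept with filterByExpr (12456) and scaled with TMM, and CPM are counts per 1000000 after that scaling. The quasi-likelihood test in edgeR 4.0.16 (robust, R 4.3.3) compared K49A with WT, with group as the only term and Benjamini-Hochberg adjustment at 0.05. The test was also run on simulated counts in which genes varied independently. That run does not show how large an Obox difference was detectable in these embryos. Standard errors are the fold change divided by the root of its F statistic. Orders and relations were tested with 2-sided permutation tests of 100000 resamples, adjusted over 5 and 27. Alternatives were other scaling, DESeq2 1.42.0 and limma 3.58.1, no filter, deeper libraries, plate column, each embryo left out, other pseudocounts and TPM. The setting without K49A embryo 4 was added after its values were seen.

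The members and gene lists were chosen with earlier results of these data known. The genes named are the members, the other tested Obox rows as counts and examples, the 3 genes nearest in pattern to each member, and the 3 genes of each list with the smallest p. Promoters were aligned with Biopython 1.88 with free end gaps.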

Additional observations from a re-analysis of the deposited data

Results flagged for a closer look

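The WT libraries 3 and 6 were too shallow for the tests, with 39135 and 4442 counts, and they held 19 and 6 counts of the 6 Obox genes. Both libraries enter no comparison, and whether these counts exceed what their depth would give was not tested. The other 17 shallow libraries held 0 or 1 Obox count each.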

How the results depend on the processing

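Every log2 fold change of the 6 members stayed negative and uncalled under all 38 alternatives, 29 of which left out 1 embryo each, and 0 members were called under any. For all genes, edgeR called 0 higher and 2 lower in K49A. The calls higher and lower were 661 and 465 without the low-count filter, 74 and 11 with DESeq2, 26 and 14 with limma, and 2 and 2 with plate column as a factor. In deep libraries they were 0 and 4, and with 1 embryo left out 0 to 2 and 2 to 4. With the replicate number as a block over 9 pairs the calls were 0 and 1, and over the same embryos without the block 0 and 0. The labels give the numbers no meaning, the deviations of same-numbered embryos correlated at -0.275 to 0.216 (median -0.0145), and 0 of the embryos matched their own number best, so the numbers were not taken as pairs. With the block, Obox6 stood at -1.16 and Obox3 at -0.999 (adjusted p = 1.0 in edgeR for both).

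Of 27 relations, 13 were positive and 3 negative. The negative count was 0 on log2(TPM + 1), 10 in deep libraries, 5 without the 2 farthest embryos and 5 in deep libraries without K49A embryo 4. The cause of these shifts was not tested. Signs turned, relative to log2(CPM + 1) over 29 embryos, as follows. On log2(TPM + 1), r was 0.25 for Obox1 and 0.10 for Obox5 with Obox6, 0.33 and 0.18 for these genes with the activation score, and 0.0186 for Obox3 and 0.40 for Obox6 with the maternal score. In deep libraries r with Obox6 was -0.46 for Obox2 and -0.31 for Obox7, and r with the activation score -0.41 and -0.44. Without K49A embryo 4 these 4 values were -0.30, -0.0867, -0.26 and -0.32. Without the 2 farthest embryos they were -0.44, -0.30, -0.35 and -0.38, and Obox1 stood at 0.0862 with Obox6 and at 0.14 with the activation score. With a pseudocount of 0.1, Obox1 with the activation score was 0.018. In deep libraries Obox6 exceeded Obox5 by 0.0632 on the log2(TPM + 1) scale, within the spread.

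Depth limits the low values. In K49A embryos 3, 14 and 22 the scarcest members rest on few or no counts, and they lie outside the deep set. So does WT embryo 10, where Obox3 rests on 2 counts and 3 counts would be 4.79 CPM.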
